A study of Mus musculus with 12 samples.

Results

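The 10 genes Malat1, Neat1, Gas5, Meg3, H19, Snhg1, Snhg3, Snhg6, Snhg8 and Kcnq1ot1 make long RNAs that are classed as noncoding. They were taken from the expression table by gene name, and each name matched 1 row, giving 10 of the 34745 genes listed. Of these, 8 had enough counts for a test in every comparison. Meg3 and H19 did not.

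MLE-12 cells were sequenced, a mouse line of lung alveolar type II (AT II) epithelial origin that is used here to model bronchopulmonary dysplasia. There were 4 groups of 3 libraries, all taken at 24 h. The LPS group received 100 ng/mL lipopolysaccharide, a bacterial cell wall component, at 21% O2. The LPS + M2-Exo group received in addition 10 µg/mL M2-Exo after the injury, which are exosomes, small membrane vesicles, released by alveolar macrophages that had been driven to the M2 state with IL-4. The hyperoxia group (Hyp) was kept at 85% O2 without LPS, and the Hyp + M2-Exo group received the same dose of exosomes after hyperoxia. No untreated cells were among these libraries, so the injuries were compared only with each other, and MLE-12 is a transformed cell line rather than primary epithelium. The labels do not say whether the 3 libraries of a group came from separate cultures, so p-values measure only the spread between these libraries, which may be technical.

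Long noncoding RNAs differ in where they act. Malat1 and Neat1 stay in the nucleus, Malat1 in nuclear speckles that hold splicing factors, and Neat1 as the scaffold of paraspeckles, bodies that form around it with proteins such as Sfpq and Nono. Gas5, Snhg1, Snhg3, Snhg6 and Snhg8 are host genes of small nucleolar RNAs (snoRNAs). In a host gene the snoRNAs lie within the introns and are cut out of the excised intron, after which they guide the modification or processing of ribosomal and other RNAs. Box C/D snoRNAs guide 2′-O-methylation and most box H/ACA snoRNAs guide pseudouridylation. The spliced host RNAs are short-lived, and many are degraded by nonsense-mediated decay, a pathway tied to translation. Host genes of this kind often begin with a run of pyrimidines at the start site, as ribosomal protein genes do. Meg3, H19 and Kcnq1ot1 are imprinted, Meg3 and H19 transcribed from the maternal and Kcnq1ot1 from the paternal chromosome, where Kcnq1ot1 silences neighbouring genes such as Cdkn1c.

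Snhg1 was the gene of the 10 with the largest difference between groups. Its introns hold 8 snoRNAs in the GENCODE M21 annotation, taken here as box C/D. Snhg1 (ENSMUSG00000108414) lies on the plus strand at chr19:8723475-8726443 of GRCm38. The sequences are shown because they are the RNAs that the gene is known to make. Capitals mark the box C letters TGATGA and the last box D letters CTGA.
Gm25855 (chr19:8723993-8724064, plus strand): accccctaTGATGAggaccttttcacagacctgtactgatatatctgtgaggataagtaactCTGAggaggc
Gm25894 (chr19:8724251-8724325, plus strand): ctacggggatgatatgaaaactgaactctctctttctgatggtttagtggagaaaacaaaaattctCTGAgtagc
Gm24452 (chr19:8724531-8724602, plus strand): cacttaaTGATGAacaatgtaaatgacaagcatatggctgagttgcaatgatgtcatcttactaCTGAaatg
Gm24453 (chr19:8724868-8724943, plus strand): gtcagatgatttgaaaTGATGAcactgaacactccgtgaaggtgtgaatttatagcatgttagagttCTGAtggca
Gm22744 (chr19:8725092-8725156, plus strand): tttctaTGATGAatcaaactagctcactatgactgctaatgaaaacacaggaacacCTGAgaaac
Gm22680 (chr19:8725341-8725409, plus strand): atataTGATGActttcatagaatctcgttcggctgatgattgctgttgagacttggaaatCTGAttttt
Gm23246 (chr19:8725594-8725660, plus strand): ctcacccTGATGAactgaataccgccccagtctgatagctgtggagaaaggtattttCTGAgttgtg
Snord22 (chr19:8725866-8725991, plus strand): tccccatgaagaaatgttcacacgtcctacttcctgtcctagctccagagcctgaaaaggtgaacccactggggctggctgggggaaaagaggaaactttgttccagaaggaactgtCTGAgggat
All 8 held the box D letters and 6 held the exact box C letters. None of the 8 was a row of the expression table, and no member of the 10 had a hosted RNA counted there, so the values below are those of the host genes. Transcripts that keep introns join the annotated exons of Snhg1 into a single block of 2969 bases over the whole gene. By the same annotation Gas5 holds 9 snoRNAs, Snhg3 holds 2, Snhg6 holds 1 and Snhg8 holds 1. The class was set here by name, and snoRNAs not named Snora were taken as box C/D. On this basis all 9 of Gas5 are box C/D, including an entry named Mir5117. All 9 held the box D letters and 7 the exact box C letters. H19 holds 1 microRNA and Meg3 holds 2. The single snoRNAs of Snhg6 and Snhg8 are of different classes, Snord87 with boxes C and D and Snora24 with the ACA letters 3 bases from its end, in capitals.
Snord87 (chr1:9942463-9942549, minus strand): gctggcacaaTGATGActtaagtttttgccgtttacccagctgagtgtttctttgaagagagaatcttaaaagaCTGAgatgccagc
Snora24 (chr3:123507937-123508066, minus strand): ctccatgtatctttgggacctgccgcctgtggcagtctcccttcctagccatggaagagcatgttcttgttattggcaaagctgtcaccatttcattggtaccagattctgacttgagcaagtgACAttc

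RefSeq promoter windows of GRCm38.p6, from 250 bases before the start site to 50 after it, were found for 7 of the 10 genes. The windows of the 4 genes called different between Hyp and LPS are shown, read 5′ to 3′ along the gene. Capitals mark any of 8 motifs, searched on both strands: the E-box CACGTG, the cyclic AMP response element TGACGTCA, the AP-1 site TGACTCA, the CCAAT box, the GC box GGGCGG, the TATA box TATAAA, the antioxidant response element TGACNNNGC and the NF-kB consensus of 10 letters.
Snhg1 (chr19:8723237-8723536, plus strand): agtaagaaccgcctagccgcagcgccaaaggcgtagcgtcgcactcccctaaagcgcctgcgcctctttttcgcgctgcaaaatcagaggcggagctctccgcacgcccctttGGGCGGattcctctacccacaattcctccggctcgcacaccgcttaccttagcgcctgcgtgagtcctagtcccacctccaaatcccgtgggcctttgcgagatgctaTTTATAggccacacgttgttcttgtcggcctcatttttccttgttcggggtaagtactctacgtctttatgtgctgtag
Snhg3 (chr4:132353637-132353936, minus strand): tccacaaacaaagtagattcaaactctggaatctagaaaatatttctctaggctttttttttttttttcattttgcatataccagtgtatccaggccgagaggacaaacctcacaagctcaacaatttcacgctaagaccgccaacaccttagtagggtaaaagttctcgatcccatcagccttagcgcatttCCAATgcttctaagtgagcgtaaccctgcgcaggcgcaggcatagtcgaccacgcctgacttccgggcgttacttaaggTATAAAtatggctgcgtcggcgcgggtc
Snhg8 (chr3:123508287-123508586, minus strand): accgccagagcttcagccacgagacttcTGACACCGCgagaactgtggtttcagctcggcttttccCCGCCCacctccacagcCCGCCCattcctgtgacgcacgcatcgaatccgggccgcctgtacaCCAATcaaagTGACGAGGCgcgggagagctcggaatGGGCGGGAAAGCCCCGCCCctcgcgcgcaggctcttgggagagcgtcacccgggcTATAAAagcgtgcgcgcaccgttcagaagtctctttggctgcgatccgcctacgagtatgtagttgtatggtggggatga
Kcnq1ot1 (chr7:143296498-143296797, minus strand): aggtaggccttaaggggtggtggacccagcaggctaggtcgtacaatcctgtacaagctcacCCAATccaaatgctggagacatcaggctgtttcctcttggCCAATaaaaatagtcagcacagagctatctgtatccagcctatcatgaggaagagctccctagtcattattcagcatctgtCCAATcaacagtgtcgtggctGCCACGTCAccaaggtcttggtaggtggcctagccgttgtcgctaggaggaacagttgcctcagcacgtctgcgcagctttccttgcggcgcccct
The Snhg1 window held the GC box letters 137 bases before the start and, on the opposite strand, the TATA letters 29 bases before it. Within 20 bases of its start the longest run of pyrimidines was 9, and 10.7% of all 32851 windows had one as long or longer. This run lies after the start, behind an A, and does not cross it. Snhg8 had a run of 7, reached in 24.3% of windows, Snhg3 one of 5 (57.5%) and Kcnq1ot1, which hosts no snoRNA, one of 4 (78.6%). The host Gas5 had runs of 3 (93.7%) and 6 (37.5%) in its 2 windows. The Snhg8 window held the TATA letters 30 bases before the start, a CCAAT box, 4 GC boxes, 2 matches to the antioxidant response element, at 222 and 111 bases before the start, and 1 NF-kB match on the opposite strand at 80 bases, which shares bases with the GC boxes at 85 and 72 bases. Kcnq1ot1 held 3 CCAAT boxes and 1 match to the antioxidant response element, and Snhg3 held 1 CCAAT box and the TATA letters 22 bases after the start. Among all windows the GC box occurred in 35.7%, the CCAAT box in 37.4%, the TATA letters in 13.6% the antioxidant response element in 12.4% and the NF-kB consensus in 4.51%. The AP-1 letters (5.2%), the E-box (7.15%) and the cyclic AMP response element (1.79%) were in none of the 4 windows printed. A match describes these letters only, and no binding was measured.

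Total counts lay between 16021833 and 19185116 in the libraries with LPS and between 20231632 and 24074616 in those with hyperoxia, so the injuries also differed in depth. Where a library had 0 counts of a gene, up to 3 could have been missed, a limit that covers counting error only. The AT II list was partly present. Sftpc, the surfactant protein C gene, had 240 to 433 counts in every library, and Nkx2-1 was higher with LPS (177.6 ± 8.43 CPM, SD, n = 3, in LPS + M2-Exo and 38.4 ± 3.64 in Hyp + M2-Exo), whereas Sftpa1 and Sftpd had at most 1 count. The 7 epithelial markers summed to 663.9 to 746.2 CPM in the libraries with LPS and 805.8 to 929.4 CPM in those with hyperoxia. Krt19 and Krt8 were high and Epcam had 6 to 21 counts. In Hyp against LPS 1 of the 5 tested was higher and 4 were lower. Of all genes 75.8% were called in that comparison, 38% higher and 37.8% lower. A count near that share, here or in the marker lists below, says nothing particular to a list. The 11 AT II markers summed to 502.6 to 561.8 CPM in the libraries with LPS and 306.8 to 328.8 CPM in those with hyperoxia, and 6 of the 8 tested were lower in Hyp than in LPS and 2 higher. The 16 macrophage markers summed to 488.8 to 545.7 CPM in LPS, 391.8 to 441.7 CPM in LPS + M2-Exo, 127.6 to 132.1 CPM in Hyp and 97.2 to 146.5 CPM in Hyp + M2-Exo, with Csf1r at 107.1 ± 5.56 CPM in LPS and 19.3 ± 2.30 CPM in Hyp (SD, n = 3), and 11 of the 14 tested were lower in Hyp and 2 higher. The sums also did not overlap between LPS and LPS + M2-Exo. There 9 of 13 macrophage markers tested had an unadjusted p under 0.05, against 11.1% of all genes. An adjusted p under 0.05 was reached by 0 of them, against 0.187% of all genes. Their median log2 fold change was -0.29. The 8 fibroblast markers summed to 775.1 to 843.1 CPM with LPS and 329.8 to 359.6 CPM with hyperoxia, led by Dcn at 790.0 ± 11.4 CPM in LPS and 332.6 ± 13.7 CPM in Hyp (SD, n = 3), and 4 of 6 tested were lower in Hyp and 0 higher. The 6 endothelial markers summed to 24.3 to 27.9 CPM with LPS and 13.1 to 17.4 CPM with hyperoxia. Of the 4 tested, 3 were higher in Hyp and 1 lower, with a median log2 fold change of 2.44. Tek had 23.3 ± 1.48 CPM in LPS and 3.67 ± 1.07 CPM in Hyp, and Vwf 1.66 ± 0.21 and 8.01 ± 0.54 CPM (SD, n = 3). Mitochondrially encoded genes took 3.62 to 4.17% of counts with LPS and 2.62 to 2.92% with hyperoxia. These differences run with the injury, that of the macrophage markers also with M2-Exo after LPS, and their part in the results on the 10 genes was not tested. The injury, the depth and any batch cannot be told apart in this design. In bulk RNA, fewer cells of a type and less RNA per cell cannot be told apart either.

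Levels between genes were compared as CPM per kb, with the length of all annotated exons joined, or of the row's own span for Kcnq1ot1, because the lengths behind the deposited FPKM were up to 3.75 times the joined exons (Snhg1). The joined exons covered 3760 of the 4118 bases of Gas5 and all 2969 of Snhg1. A spliced RNA of these genes would be shorter and its level per kb higher, so the order of genes depends on this length. On this scale Malat1 was the highest of the 10 in every group, with means of 67.7 to 81.8 CPM per kb. Its libraries did not overlap those of the next gene. In LPS the order went on with Gas5 at 20.03, Snhg1 at 16.0, Neat1 at 9.96, Snhg6 at 9.82, Snhg8 at 7.06 and Snhg3 at 6.59 CPM per kb. Neat1 and Snhg6 were neighbours that overlapped, as were Snhg8 and Snhg3. With hyperoxia Snhg1 stood above Gas5, at 39.1 against 20.6 CPM per kb in Hyp and 42.3 against 22.5 in Hyp + M2-Exo, and in both groups their libraries were separate. In Hyp the 4 genes Snhg6, Neat1, Snhg8 and Snhg3, with means from 10.2 to 8.74 CPM per kb, each overlapped the next. In Hyp + M2-Exo Neat1 held the lowest place of these 4, at 6.88 CPM per kb, and its libraries lay below those of Snhg3 at 10.4. Kcnq1ot1 was far lower per length, from 0.234 CPM per kb in LPS to 0.132 in Hyp + M2-Exo, over a single exon block many times longer than the other genes.

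**Figure D1:**
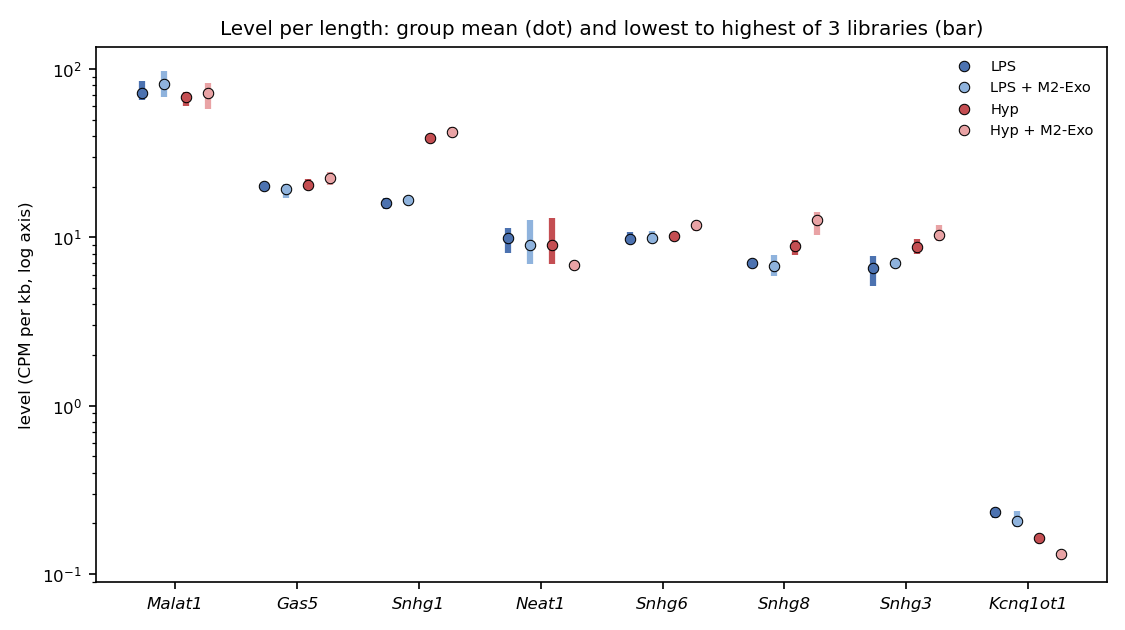
Level of 8 genes per length (CPM per kb, log axis) in the 4 groups; dots are group means and bars run from the lowest to the highest of 3 libraries. With this choice of length Malat1 is highest throughout (67.7 to 81.8 CPM per kb). Snhg1 lies below Gas5 in both LPS groups and above it in both hyperoxia groups. The order of genes depends on the length used.

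Meg3 and H19 were at or near 0. Meg3 (chr12:109541001-109571726) had 0, 0 and 1 counts in LPS and 0, 1 and 1 in LPS + M2-Exo. It had 1, 0 and 2 counts in Hyp and 0, 0 and 0 in Hyp + M2-Exo, so at most 2 in any library. Of the genes of the same imprinted cluster, Dlk1 had 0 counts in every library. H19 (chr7:142575529-142578143) had 0, 1 and 1 counts in LPS, 3, 2 and 2 in LPS + M2-Exo and 5, 2 and 1 in Hyp. In Hyp + M2-Exo it had 1, 11 and 12 counts, so 2 of those libraries stood above all others and the remaining one did not. No fold change is given for either gene, and Igf2, the neighbour of H19, had 0 or 1 counts in the LPS groups and 8 to 20 in the hyperoxia groups.

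The first question was whether M2-Exo changed these RNAs after LPS. None of the 8 genes tested had an adjusted p under 0.05 between LPS + M2-Exo and LPS in edgeR's quasi-likelihood test with Benjamini-Hochberg adjustment over all genes, where 0.187% of 13353 genes did. In DESeq2's Wald test and in edgeR's exact test the count was also 0, and 0 had an unadjusted p under 0.05, which 11.1% of all genes reached. For all 8 the libraries of the groups overlapped, whereas 17.2% of all genes had groups that did not. The fold changes ran from -0.17 (Kcnq1ot1) to 0.18 (Malat1) on the log2 scale, with a median of -0.02 against 0.0027 over all genes tested. Snhg1, at 48.0, 43.7 and 50.9 CPM in LPS and 50.4, 49.9 and 47.4 CPM in LPS + M2-Exo, changed by 0.05 (95% interval -0.10 to 0.20). For Gas5 the interval was -0.22 to 0.13, and for Snhg8 it was -0.35 to 0.25. Neat1 had the widest, from -0.66 to 0.38.

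The second question was the same after hyperoxia. Again 0 of 8 genes passed the adjustment between Hyp + M2-Exo and Hyp in edgeR, where 0.101% of 13815 genes did, and 0 passed in DESeq2 or the exact test. An unadjusted p under 0.05 was reached by 3 of the 8, Snhg8, Kcnq1ot1 and Snhg6, against 8.48% of all genes. The same 3 were the genes whose libraries did not overlap between the groups, which held for 16% of all genes.
Snhg8 (ENSMUSG00000104960, chr3:123507552-123508404), the host of Snora24, stood at 7.69, 8.20 and 6.70 CPM in Hyp and at 8.84, 11.3 and 12.1 CPM in Hyp + M2-Exo. All 3 libraries with M2-Exo lay above the 3 without it, the nearest by less than 1 CPM. Its log2 fold change was 0.51 (standard error, SE, 0.14, 95% interval 0.18 to 0.83, unadjusted p = 0.0069, adjusted p = 0.541 in edgeR), and 3.18% of genes had a larger change. Kcnq1ot1 went the other way, from 13.5, 14.3 and 13.6 CPM in Hyp to 11.5, 11.5 and 10.49 CPM in Hyp + M2-Exo. Here too the groups were separate, with a log2 fold change of -0.31 (SE 0.07, adjusted p = 0.541 in edgeR). Snhg6, the host of Snord87, had 10.95, 11.9 and 12.1 CPM in Hyp and 12.5, 13.9 and 14.3 CPM in Hyp + M2-Exo, with a log2 fold change of 0.21 (SE 0.09, adjusted p = 0.575 in edgeR). These 3 differences failed the adjustment. Snhg1 and Snhg3 overlapped between the groups, with log2 fold changes of 0.11 (95% interval -0.02 to 0.24) and 0.24 (-0.04 to 0.52).

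**Figure D2:**
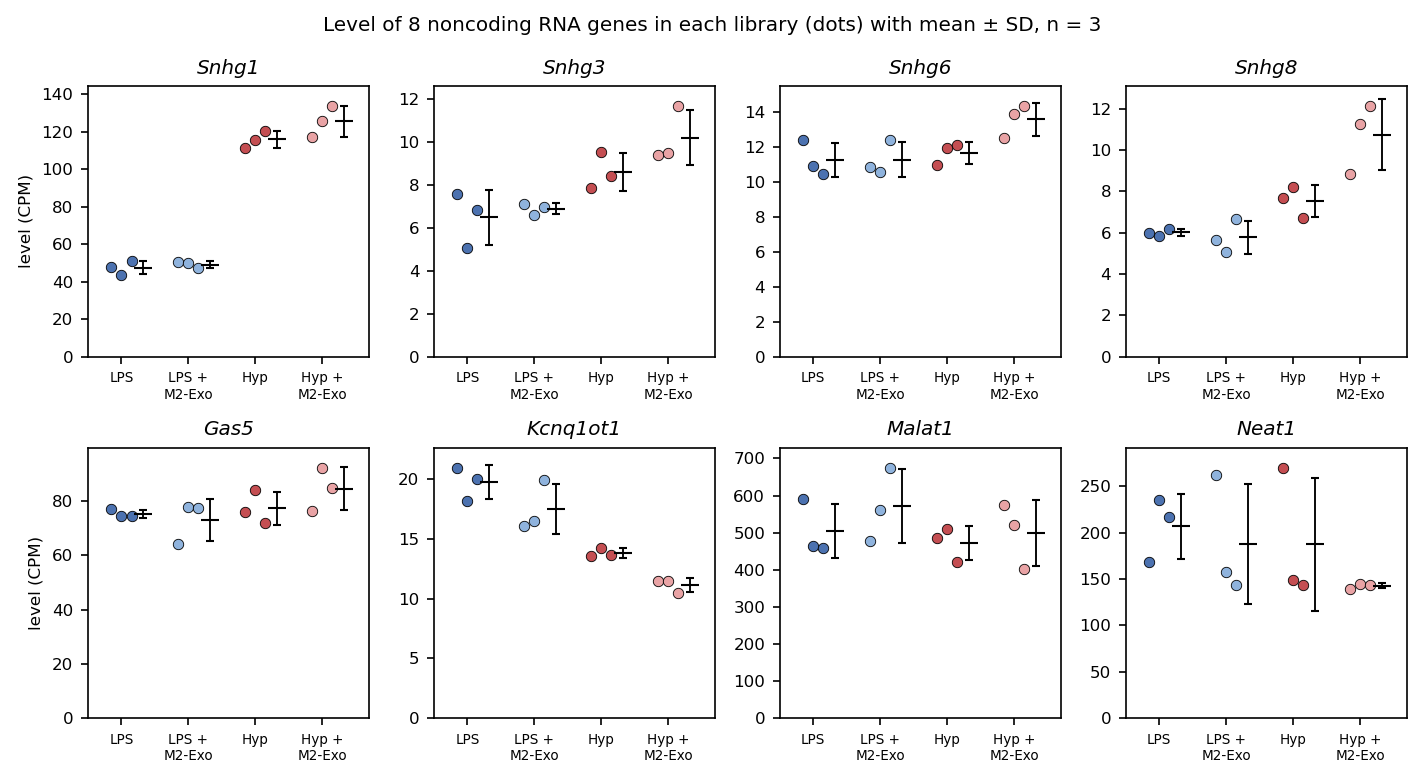
Level (CPM) of 8 genes in each of the 12 libraries; dots are libraries and the bar beside each group is its mean ± SD (n = 3), with every axis starting at 0. Snhg1 lies at 43.7 to 50.9 CPM in the 6 LPS libraries and at 111.5 to 133.7 CPM in the 6 hyperoxia libraries, and Neat1 has single high libraries in LPS + M2-Exo and Hyp.

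The change with M2-Exo was then compared between the injuries as an interaction over all 12 libraries. No gene of the 8 differed after adjustment in edgeR or DESeq2, where edgeR called 0.0352% of 14187 genes. The single unadjusted p under 0.05 was that of Snhg8 (unadjusted p = 0.014, adjusted p = 0.404 in edgeR), for which the change with M2-Exo was 0.56 higher on the log2 scale in hyperoxia than in LPS (SE 0.20, 95% interval 0.14 to 0.99). An unadjusted p under 0.05 was found for 9.78% of all genes. For Snhg1 the difference was 0.06 with an interval of -0.13 to 0.26.

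Hyp was set against LPS to see where the injuries left these RNAs. Snhg1, Snhg3 and Snhg8 were higher in Hyp and Kcnq1ot1 was lower, 4 of the 8 genes tested. In that comparison 75.8% of 13805 genes were called, 38% higher and 37.8% lower, so the 50% of the 8 genes was below the share of all genes and is not a result about them as a group. Their median log2 fold change was 0.05 against 0.0091 over all genes. The same 4 had libraries that did not overlap, as did 78.8% of all genes. What set one of them apart was size.

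Snhg1 had 48.0, 43.7 and 50.9 CPM in LPS and 111.5, 115.7 and 120.6 CPM in Hyp. The 3 Hyp libraries lay far above all of LPS, and the spread within each group was small beside the gap. The mean was 47.5 ± 3.60 CPM in LPS and 115.9 ± 4.56 CPM in Hyp (SD, n = 3 each), a 2.44-fold difference with a log2 fold change of 1.29 (SE 0.06, 95% interval 1.14 to 1.43, adjusted p = 6.37e-07 in edgeR). A larger change was fitted for 16.6% of genes. In the arms with M2-Exo the values were 50.4, 49.9 and 47.4 CPM against 117.0, 125.9 and 133.7 CPM, a log2 fold change of 1.35 (SE 0.06, adjusted p = 5.72e-07 in edgeR), and 15.2% of genes had a larger one. Leaving out each library in turn kept the change between 1.23 and 1.34 without M2-Exo and between 1.31 and 1.40 with it.

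In Snhg3 (chr4:132348014-132353686), which hosts Snora73a and Snora73b, the LPS libraries held 7.59, 5.06 and 6.85 CPM and the Hyp libraries 7.85, 9.57 and 8.42 CPM. The groups were separate by a narrow gap, with a log2 fold change of 0.41 (SE 0.16, adjusted p = 0.0421 in edgeR). DESeq2's Wald test did not call it (adjusted p = 0.0538), nor did edgeR without LPS replicate 2 (0.25, adjusted p = 0.114), LPS replicate 3 (adjusted p = 0.0648), Hyp replicate 2 (adjusted p = 0.122) or Hyp replicate 3 (adjusted p = 0.0724). In the arms with M2-Exo the difference was larger, 7.13, 6.61 and 6.98 CPM against 9.43, 9.52 and 11.7 CPM, with a log2 fold change of 0.56 (adjusted p = 0.00324 in edgeR), and it was still called when any one of the 6 libraries was left out. On the opposite strand Gm17300, with 0 or 1 counts in each library, shares 705 of the 986 exon bases of Snhg3. Snhg3 lies within Rcc1, on the same strand, for 5592 bases and shares 135 of its 986 exon bases with it. Rcc1, which encodes an exchange factor of the GTPase Ran, was itself higher, at 70.7 ± 0.18 CPM in LPS and 98.3 ± 6.06 CPM in Hyp (SD, n = 3), and reads of the shared bases cannot be assigned from these counts.

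For Snhg8 the LPS libraries held 5.99, 5.86 and 6.20 CPM, all below the 6.70 to 8.20 CPM of Hyp. The log2 fold change was 0.32 (SE 0.11, adjusted p = 0.0252 in edgeR). It was not called by DESeq2 (adjusted p = 0.106), with all 12 libraries fitted together (adjusted p = 0.0519) or without LPS replicate 1 (adjusted p = 0.062), LPS replicate 2 (adjusted p = 0.0743), Hyp replicate 1 (adjusted p = 0.0614) or Hyp replicate 2 (adjusted p = 0.076) in edgeR. In the presence of M2-Exo Snhg8 had 5.64, 5.05 and 6.65 CPM against 8.84, 11.3 and 12.1 CPM, a log2 fold change of 0.89 (SE 0.16, adjusted p = 0.00115 in edgeR), and the groups were well separated.

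Kcnq1ot1 was lower with hyperoxia, at 20.9, 18.2 and 20.01 CPM in LPS and 13.5, 14.3 and 13.6 CPM in Hyp. The groups did not overlap, and the log2 fold change was -0.51 (SE 0.07, adjusted p = 0.00033 in edgeR). With M2-Exo it was -0.65 (SE 0.11, adjusted p = 0.000707 in edgeR), from 16.1, 16.5 and 19.9 CPM to 11.5, 11.5 and 10.49 CPM. Leaving out single libraries kept it below 0, between -0.57 and -0.48 without M2-Exo and between -0.71 and -0.55 with it. The gene lies inside Kcnq1 on the opposite strand (chr7:143212155-143296549), and Kcnq1 itself had 0 to 3 counts. Among 17 imprinted genes near H19, Kcnq1ot1 and Meg3, 5 could be tested, of which 2 were higher and 2 lower in Hyp. Cdkn1c, a cell cycle inhibitor silenced in cis by Kcnq1ot1 in many tissues, was also lower, at 12.5 ± 0.10 CPM in LPS and 1.98 ± 0.24 CPM in Hyp (SD, n = 3, log2 fold change -2.65, adjusted p = 2.93e-07 in edgeR). Cd81, a tetraspanin found on exosomes, was lower too (-1.29), and Nap1l4, a histone chaperone gene, was slightly higher (0.20).

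Between Hyp + M2-Exo and LPS + M2-Exo, 5 of the 8 genes were called, which is 62.5% against 73.7% of 13660 genes (37.1% higher and 36.5% lower). Snhg1, Snhg3, Snhg6 and Snhg8 were higher and Kcnq1ot1 was lower, and these 5 did not overlap between the groups, as 77% of genes did not. The median of the 8 was 0.24 against 0.0083 over all genes. Snhg6 (chr1:9941959-9944118) was called only here among the 4 comparisons of groups. Its levels were 10.9, 10.6 and 12.4 CPM in LPS + M2-Exo and 12.5, 13.9 and 14.3 CPM in Hyp + M2-Exo, so the groups nearly met, and the log2 fold change was 0.27 (SE 0.10, adjusted p = 0.0459 in edgeR). The exact test (adjusted p = 0.0562) and DESeq2 (adjusted p = 0.106) did not call it, and neither did edgeR without LPS + M2-Exo replicate 1 (adjusted p = 0.122) or 2 (adjusted p = 0.139) or without Hyp + M2-Exo replicate 2 (adjusted p = 0.105) or 3 (adjusted p = 0.112). Without M2-Exo its change between the injuries was 0.05 (95% interval -0.15 to 0.26).

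**Figure D3:**
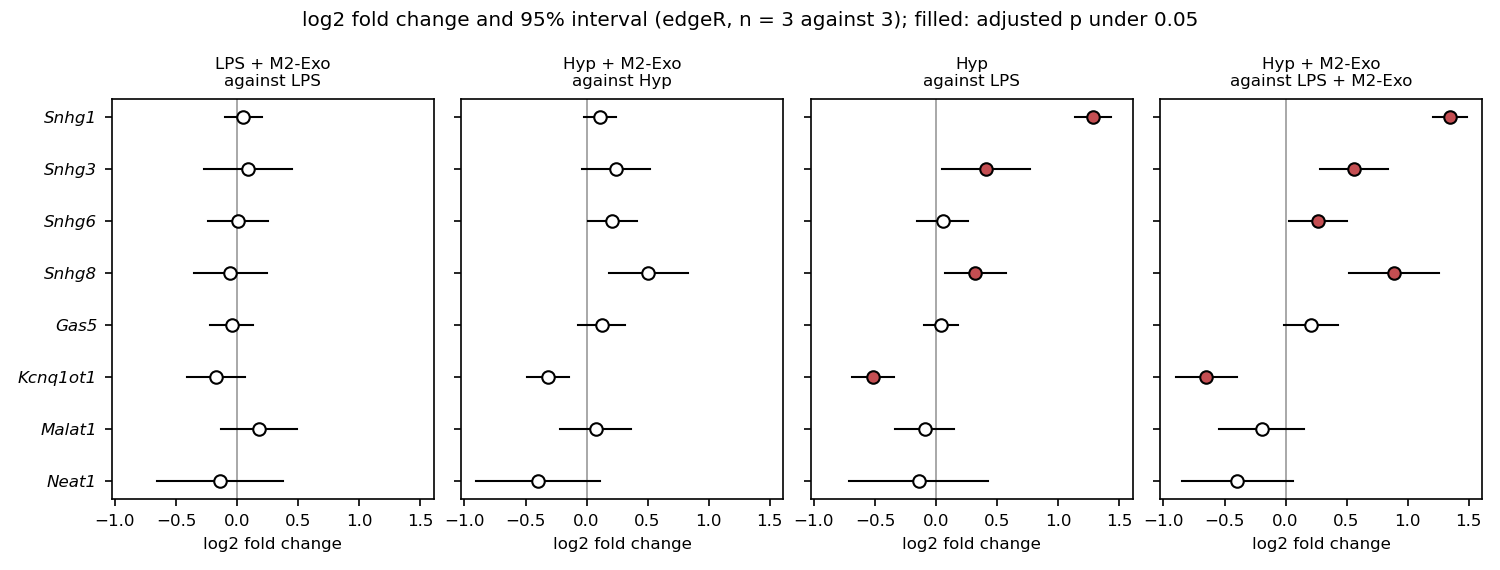
log2 fold change of 8 genes in the 4 comparisons of groups; dots are edgeR estimates, lines are 95% intervals and filled dots have an adjusted p under 0.05. No dot is filled for M2-Exo, and Snhg1 lies farthest from 0 in both comparisons of the injuries (1.29 and 1.35).

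Gas5 (ENSMUSG00000053332, chr1:161034422-161038539), with the most snoRNAs of the 10 and a known rise under growth arrest, lay between 64.1 and 92.3 CPM. It had 77.0, 74.5 and 74.5 CPM in LPS, 64.1, 77.7 and 77.6 CPM in LPS + M2-Exo, 75.9, 83.9 and 72.1 CPM in Hyp and 76.5, 92.3 and 84.8 CPM in Hyp + M2-Exo. The groups overlapped in every comparison. Hyp against LPS gave 0.04 on the log2 scale with a 95% interval of -0.10 to 0.18, which lies far below the change of Snhg1. With M2-Exo in both arms it gave 0.21 (adjusted p = 0.0792 in edgeR), and this passed the threshold with total counts alone (adjusted p = 0.0206), in DESeq2 (adjusted p = 0.0486), in limma on log2 FPKM with the filter on low values (adjusted p = 0.0289 and 0.0295), with all 12 libraries in a fit (adjusted p = 0.0435) and without Hyp + M2-Exo replicate 1 (adjusted p = 0.0325). Gas5 overlaps Zbtb37 on the other strand by 428 bases, none of them exonic in both, and whether the counting used strand is not given in the sources used here.

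Malat1 (chr19:5795690-5802672) had 589.4, 464.4 and 459.2 CPM in LPS, 478.0, 561.0 and 675.3 CPM in LPS + M2-Exo, 486.4, 509.4 and 421.8 CPM in Hyp and 574.7, 521.8 and 401.6 CPM in Hyp + M2-Exo. The groups overlapped in all 4 comparisons, and the fitted changes ran from -0.20 to 0.18 on the log2 scale. Within groups its coefficient of variation was 9.62 to 17.8%, against a median of 4.1 to 5.33% over 10716 genes with a mean of at least 5 CPM.

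Neat1 (chr19:5824708-5845478) varied more within groups than between them. Its levels were 168.1, 235.1 and 217.2 CPM in LPS, 261.7, 157.8 and 143.9 CPM in LPS + M2-Exo, 270.1, 148.8 and 143.2 CPM in Hyp and 139.5, 145.1 and 144.1 CPM in Hyp + M2-Exo. One library of LPS + M2-Exo and one of Hyp stood well above the other two of their group, whereas the 3 libraries of Hyp + M2-Exo nearly coincided. The coefficient of variation was 38.3% in Hyp, where 0.849% of genes had a larger one, and 2.11% in Hyp + M2-Exo, where 86.4% did. Against this spread no comparison of Neat1 was called. Its change between Hyp and LPS was -0.14 (95% interval -0.71 to 0.42), and without Hyp replicate 1 it was -0.50 (adjusted p = 0.0124 in edgeR). With M2-Exo in both arms it was -0.39 (adjusted p = 0.104), and without LPS + M2-Exo replicate 3 it was -0.56 (adjusted p = 0.0288 in edgeR). M2-Exo against hyperoxia alone gave -0.40 (95% interval -0.91 to 0.11), which became -0.04 without Hyp replicate 1. Malat1 and the long form of Neat1 end without a usual poly(A) tail, and the libraries were made from poly(A) RNA. A list of 15 other genes, mostly histone genes, was compiled as RNAs without a poly(A) tail. Whether their transcripts lacked a tail in these cells was not tested. The list summed to 9.78 to 13.6 CPM with LPS and 32.7 to 42.2 CPM with hyperoxia. The sum was led by Hist1h1c (mean 5.37 CPM in LPS and 20.8 in Hyp) and Hist1h2bc (3.66 and 12.4). Rmrp, Rpph1, Terc, Rny1 and Rny3 had group means of at most 0.518 CPM, so the sum does not speak for such RNAs in general. The part of this in the levels of Malat1 and Neat1 was not tested.

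The other genes of these pathways were read from lists. Of 11 further noncoding snoRNA hosts with a row, 7 were tested, and in Hyp against LPS 4 were higher and 0 lower, with a median log2 fold change of 0.42. Snhg12 rose from 10.52 ± 1.10 CPM in LPS to 39.4 ± 1.85 CPM in Hyp (SD, n = 3, log2 fold change 1.91, adjusted p = 4.33e-07 in edgeR). Snhg5 rose from 13.2 ± 0.81 CPM to 23.5 ± 1.06 CPM (0.83, adjusted p = 1.59e-05), and Snhg17 rose by a smaller amount (0.42, adjusted p = 3.3e-05). With M2-Exo in both arms 5 of the 7 were higher and 0 lower, with a median of 0.57, where 73.7% of all genes were called. The 5 included Snhg5 (1.00), Snhg12 (2.33) and Epb41l4aos (0.83). Snhg12 spread widely in Hyp + M2-Exo, from 809 to 1564 counts. None of these 7 further noncoding hosts was called with M2-Exo after either injury. Among them the smallest p belonged to Snhg4 after LPS (-0.51, adjusted p = 0.308 in edgeR) and to Snhg5 after hyperoxia (0.25, adjusted p = 0.544 in edgeR).

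Protein-coding genes that carry snoRNAs did not share one direction. Of 11 tested, 5 were higher and 5 lower in Hyp than in LPS, with a median of 0.10, where 75.8% of all genes were called. Hspa9, which encodes a mitochondrial chaperone, had a log2 fold change of 1.46, Taf1d of RNA polymerase I transcription one of 1.00 and Nop56, itself a core protein of box C/D particles, one of 0.91, all with an adjusted p under 0.05 in edgeR. With M2-Exo in both arms 5 were higher and 4 lower, where 73.7% of all genes were called. Hspa8, the constitutive cytosolic Hsp70, was lower there (-1.86, adjusted p = 3.93e-06 in edgeR). Among the proteins of snoRNA particles and their assembly factors, 12 of 16 were higher and 1 lower in Hyp (median 0.60), against 75.8% of all genes called. The same counts held with M2-Exo in both arms (median 0.49), against 73.7% of all genes called. Nop56, Nhp2 (0.71) and Nufip1 (0.79) had the smallest p in Hyp against LPS.

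Of 18 factors of nonsense-mediated decay, 13 were higher and 2 lower in Hyp, with a median of 0.31. The list was led by Smg6, the endonuclease of the pathway, which was lower (-0.96), and by Rnps1 (0.51) and Nbas (0.80), which were higher. Of 15 paraspeckle proteins, 3 were higher and 10 lower, with a median of -0.21. Sfpq (-0.51) and Nono (-0.45), the partners of Neat1, and Nudt21 (-0.71), a factor of 3′ end processing, were lower. Of 20 nuclear speckle and SR proteins, where Malat1 resides, 8 were higher and 6 lower, with a median of 0.05. Other long noncoding RNAs were mixed, 2 of 9 higher and 4 lower, with Firre (-0.61) and 2900097C17Rik (-0.84) lower and Tug1 (0.24) higher. All of these changes are log2 fold changes of Hyp against LPS with an adjusted p under 0.05 in edgeR, in a comparison in which 75.8% of genes were called, so a count near that share says nothing particular to a list. With M2-Exo 0 genes of any of these lists were called after either injury, where 0.187% of all genes were called after LPS and 0.101% after hyperoxia.

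**Figure D4:**
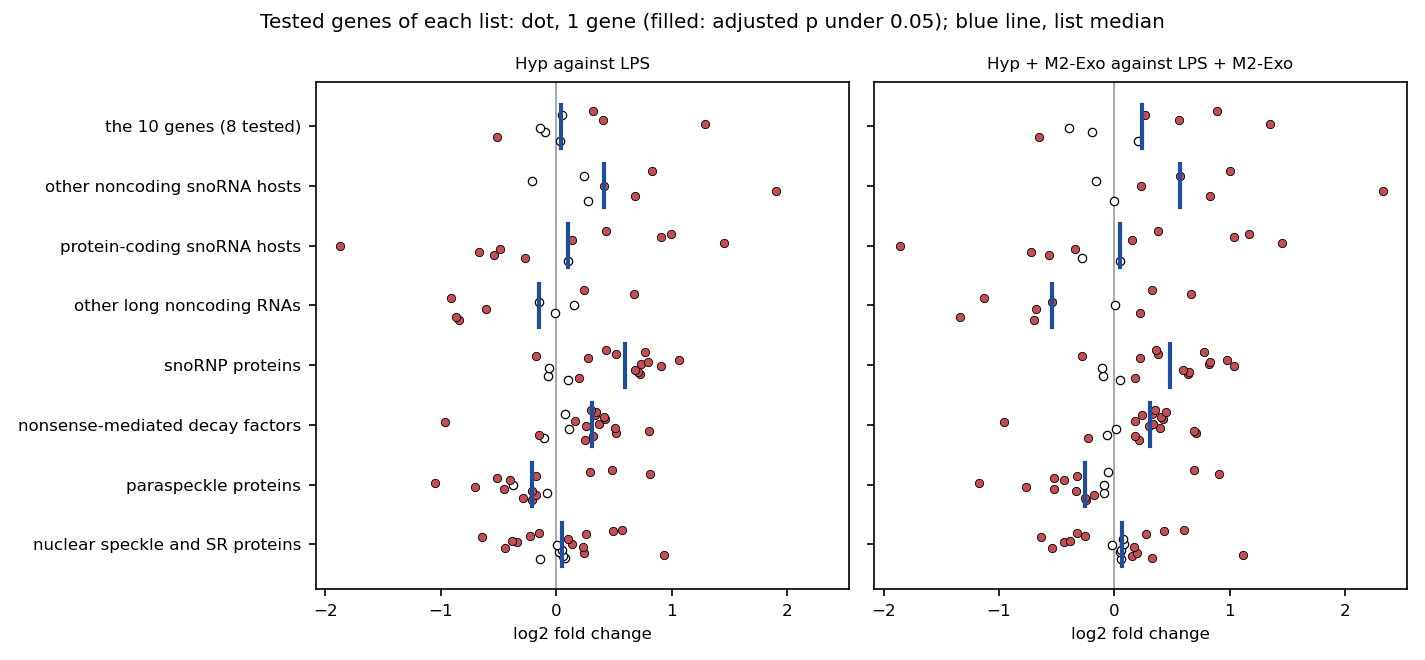
log2 fold changes of the tested genes of 8 lists in the 2 comparisons of the injuries; each dot is a gene, filled where the adjusted p is under 0.05, and blue lines are list medians. Medians of the other noncoding snoRNA hosts (0.42 and 0.57) and of the snoRNA particle proteins (0.60 and 0.49) lie above 0, and those of the paraspeckle proteins (-0.21 and -0.25) below.

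The genes most alike to each member were taken as the 3 with the highest Pearson correlation of log2 CPM over the 12 libraries, among 10716 genes with a mean of at least 5 CPM. The libraries share their scaling and fall into injuries, so the values are descriptions. The correlation after removal of group means is given beside the closest gene of each member and beside some of the others. For Snhg1 they were Mtbp (0.998 over all, 0.847 within groups), Aldh4a1 (0.998 and 0.881) and Cdkn2aip (0.997 and 0.808). Snhg8 was most like Cenpw (0.959 and 0.817), Katna1 (0.949 and 0.962) and Mrpl54 (0.942 and 0.667). Snhg3 was most like Parp11 (0.966 and 0.877), Zfp346 and Cipc, and Snhg6 was most like Rictor (0.936 and 0.952), Clcn3 and Upf2. Kcnq1ot1 was most like Cacna1a (0.961 and 0.772), B4galnt1 (0.96 and only 0.536) and Kif16b (0.954 and 0.838). For the genes that did not move with the injury the likeness lay in the spread within groups. Gas5 was most like Ybx1-ps2 (0.956 and 0.964), Snrpb2 and Tma7-ps, of which Ybx1-ps2 and Tma7-ps are named as pseudogenes. Malat1 was most like Pter (0.923 and 0.925), Usp14 (0.922 and 0.921) and Vbp1, and Neat1 was least matched, with Elf4 (0.831 and 0.849), Crtc2 and Cc2d1a.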

How the data were processed

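RNA from 12 libraries of MLE-12 cells, 3 in each of 4 groups given by the sample titles, was sequenced after poly(A) selection. The authors filtered reads with Seqtk, and the submitters' processing notes name HISAT2 2.0.4, StringTie 1.3.0, edgeR and GRCm38. The counting program and its use of strand are not given in the sources used here. For 34745 genes the authors deposited raw read counts and FPKM, which followed from the counts and a gene length to a relative 0.000733. All counts carried a gene name. Depth ranged from 16021833 to 24074616 counts.

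The tests on counts used edgeR 4.0.16 under R 4.3.3, with filterByExpr, TMM scaling, and the quasi-likelihood F test on the 6 libraries of each comparison, adjusted over all genes by Benjamini-Hochberg, with the interaction fitted on 12 libraries. The script was tested on simulated data. CPM were scaled by TMM over all libraries. Intervals are 95%. Correlations used log2 CPM with a pseudocount of 0.5.

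Alternatives were RLE or total counts, no filter or at least 10 counts, edgeR's exact test, DESeq2 1.42.0, limma 3.58.1 on log2 FPKM (pseudocount 1 or 0.1), a replicate block, one fit over 12 libraries, each library left out, and unadjusted p-values. A log2 fold change of at least 1 was added after the data were seen. The 10 genes and all lists were chosen with earlier results of these data known. Named were the 10 genes and some of the genes that overlap them. Per list the rule was to name the 3 genes with the smallest p among those called, or otherwise the 1 with the smallest p. Not every gene under this rule is named. None is named from the nuclear speckle and SR list, and for M2-Exo after an injury only noncoding snoRNA hosts are. Names beyond these (cell markers, Dlk1 and Igf2) were chosen after their values were seen. GENCODE M21, in which 34267 gene identifiers were found, gave exons and hosted RNAs, and RefSeq gave promoters.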

Additional observations from a re-analysis of the deposited data

How the results depend on the processing

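Leaving out libraries and other scalings changed no call for M2-Exo among the 10 genes: 0 were called in every alternative with an adjusted p. Unadjusted p-values gave 3 after hyperoxia and 1 for the interaction. Between Hyp and LPS 4 became 2 with DESeq2, 2 with the replicate block and 2 to 4 with 1 library left out (2 without LPS replicate 2 or Hyp replicate 2), and a fold change of at least 2 left 1 there and 1 with M2-Exo in both arms, where leave-one-out gave 4 to 6. With total counts the median of all genes moved to 0.0987 and 0.0991 in the comparisons of the injuries, and with FPKM and a pseudocount of 0.1 to 0.107 and 0.106, so changes of the 10 genes there are to be read against that shift.

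Genes called after LPS numbered 25, and 101 in the exact test, 130 in DESeq2, 12 with all 12 libraries, 6 with the replicate block, 1481 by unadjusted p, 4 with the fold threshold and 21 to 39 without 1 library (39 without LPS replicate 1). After hyperoxia they numbered 14, and 28, 37, 2, 8, 1171 and 3 in the same order, 7 by limma without a filter and 12 to 21 without 1 library. The fold threshold left 3310 and 3273 genes between the injuries. The interaction gave 5, and 13 without a filter, 70 in DESeq2, 13 by limma without a filter, 1 with the block, 1387 unadjusted, 0 with the fold threshold and 4 to 34 without 1 library (34 without Hyp + M2-Exo replicate 1).

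Small values changed sign. Snhg6 after LPS went to -0.00205 with total counts and to -0.0034, -0.00398 and -0.0034 by limma on FPKM, and Malat1 in Hyp against LPS to 0.00103, 0.00113 and 0.00103. Without 1 library the log2 fold changes that changed sign ran, in Hyp against LPS, Gas5 from -0.0199 to 0.0919, Malat1 from -0.158 to 0.0254, Neat1 from -0.496 to 0.0251, and after LPS, Gas5 from -0.0891 to 0.0414, Neat1 from -0.458 to 0.0198, Snhg1 from -0.00905 to 0.0987, Snhg3 from -0.0655 to 0.213, Snhg6 from -0.072 to 0.0756, Snhg8 from -0.17 to 0.0324, and after hyperoxia, Malat1 from -0.0363 to 0.206, and for the interaction, Malat1 from -0.225 to 0.0379, Neat1 from -0.412 to 0.108. The cause was not tested for any change.

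Same-numbered deviations correlated at -0.0156 to 0.0594 and differently numbered ones at -0.0793 to 0.0288. Values so near 0 show no clear pairing by replicate number, but they cannot exclude it. With the block Snhg3 (adjusted p = 0.0788) and Snhg8 (0.05) lost their calls between Hyp and LPS, and Gas5 gained one with M2-Exo in both arms (0.0134, edgeR). Depth limits Meg3 and H19, which could not be tested. Kcnq1ot1 gave no value by limma with the filter, its mean FPKM being under 1, and without it -0.07 in Hyp against LPS on the log2(FPKM + 1) scale.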
